A study of Mus musculus with 47 samples.

Results

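The 10 genes described here encode the core of the skeletal muscle triad, the junction at which an electrical signal on the muscle cell membrane is turned into calcium release. They were chosen by name, as Cacna1s, Cacnb1, Cacng1, Stac3, Ryr1, Jph1, Jph2, Trdn, Casq1 and Casq2, and are 10 of the 45650 genes counted in the series. All 10 were found in the count tables, through 34 annotated transcripts.

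At a triad, a T-tubule, which is an inward fold of the surface membrane, lies against the sarcoplasmic reticulum, the internal calcium store. The voltage sensor CaV1.1 in the T-tubule detects depolarization and acts mechanically on the ryanodine receptor RyR1 in the reticulum, which opens and lets calcium out to start contraction. Junctophilins hold the 2 membranes together, and triadin and the calsequestrins keep calcium stored beside the release channel. Unfused myoblasts have no triads, which are assembled as myotubes form and mature.

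C2C12 is an immortalized mouse myoblast line that fuses into multinucleated myotubes when serum is withdrawn. In C2C12 iMyoD1, described by the study as a polyclonal population, the endogenous Myod1 gene was kept and Halo-tagged MyoD1, the muscle-determining transcription factor, was added under a doxycycline (dox) responsive promoter. C2C12 iCdh23 and C2C12 iMcam carried instead inducible Cdh23, a cadherin, or inducible Mcam, an immunoglobulin-type adhesion molecule. PolyA RNA was sequenced from 47 libraries in 16 groups, and in each group cells received dox or vehicle. Unseparated iMyoD1 cultures were taken in growth medium (0 h) and after 24, 48 or 120 h in low-serum medium. At 120 h, iMyoD1 cultures were also separated by mild trypsin and a 40 µm strainer into a myoblast-enriched fraction, which passed it, and a myotube-enriched fraction, which was retained. The iCdh23 and iMcam cultures were taken at 48 h. Every group had 3 libraries labelled as biological replicates, except the myoblast-enriched fraction with dox, which had 2. Dox or vehicle had been present for 24 h in the 0 h and 24 h groups, for 48 h in all 48 h groups and for 120 h in all 120 h groups. Vehicle-treated cells carried the same transgene as the dox-treated cells, and no group here was C2C12 without a transgene, so that dox and the induced gene cannot be told apart within a line.

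Library totals were between 15066352 and 50950687 estimated counts, with a median of 22837945. Levels are given in CPM, a gene's share of the counts of its library after scaling with TMM factors over all libraries. The 0 h and 24 h libraries came from another deposited table than the unseparated 48 h and 120 h iMyoD1 libraries and lack the batch label that those carry. The interval from 24 to 48 h, the length of treatment and the batch thus cannot be told apart. The fraction, iCdh23 and iMcam libraries came from yet another deposited table. Comparing them with unseparated iMyoD1 cultures crosses tables, so table, separation and line cannot be told apart there. Counts assigned to Myod1, for which the sources used here do not say whether the transgene was in the reference, were no higher with dox in iMyoD1 cultures (log2 fold change at 0 h 0.09, edgeR adjusted p = 0.201) and were lower at 120 h (-1.62, adjusted p = 1.31e-05). In iMcam, Mcam was at 17.1 to 19.8 CPM with vehicle and 69.0 to 74.7 CPM with dox (log2 fold change 2.02, adjusted p = 0.000124). In iCdh23, Cdh23 was already at 348 to 451 CPM with vehicle and at 426 to 568 CPM with dox (0.32, adjusted p = 0.102).

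The replicate 2 libraries of the myotube-enriched fraction went against their labels. A dox response was measured in each library as the mean log2(CPM + 0.5) of 286 genes that were higher with dox in unseparated 120 h cultures minus that of 359 genes that were lower. This difference was between -3.60 and -3.55 with vehicle and between 0.50 and 0.55 with dox in those unseparated cultures, which define it. In the myoblast-enriched fraction it was between -2.09 and -1.41 with vehicle and between -0.16 and -0.04 with dox. In the myotube-enriched libraries labelled vehicle it was -1.78, -0.14 and -2.17, and in those labelled dox it was -0.29, -2.48 and -0.05, in the order of replicates 1, 2 and 3. Mcam, which was higher with dox in the myoblast-enriched fraction (log2 fold change 2.36, edgeR adjusted p = 0.0308), was at 3.47, 16.2 and 3.08 CPM in the myotube-enriched libraries labelled vehicle and at 12.4, 1.26 and 15.2 CPM in those labelled dox. The labels were kept as deposited, and the results on the myotube-enriched fraction are given with and without the 2 libraries labelled replicate 2, an alternative chosen after seeing the data.

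**Figure D1:**
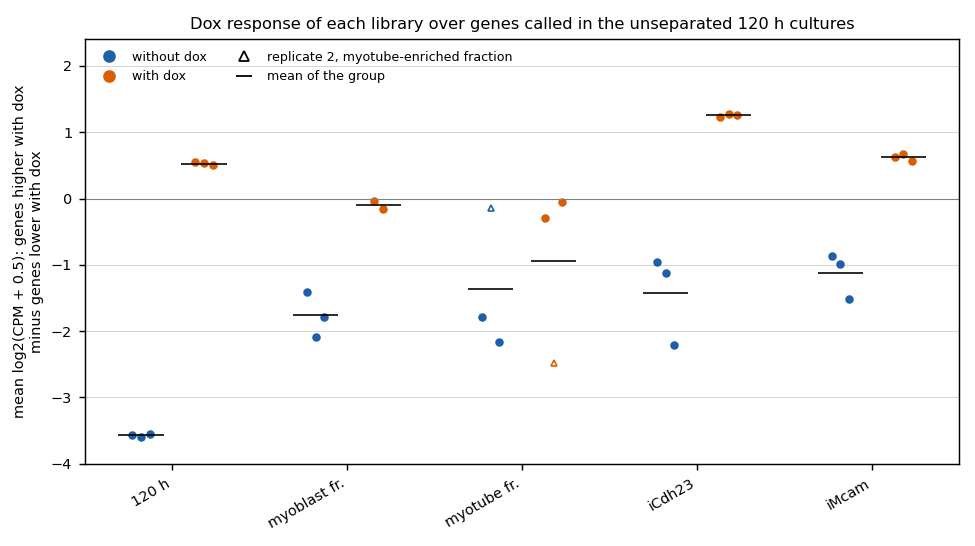
Dox response of each library from 120 h iMyoD1 cultures and from iCdh23 and iMcam, as the mean log2(CPM + 0.5) of 286 genes higher with dox minus that of 359 genes lower with dox in unseparated 120 h cultures. Each point is a library. The myotube-enriched library labelled vehicle replicate 2 sits at -0.14 among the dox libraries and the one labelled dox replicate 2 at -2.48 among the vehicle libraries.

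In growing cultures the triad genes were counted at very different depths. In positions of GRCm38 with the GENCODE vM21 annotation, the voltage sensor subunits are Cacna1s on chromosome 1 (136052750 to 136119822, plus strand), the pore-forming and voltage-sensing subunit; Cacnb1 on chromosome 11 (98001508 to 98023034, minus strand), its intracellular beta subunit; and Cacng1 on chromosome 11 (107703218 to 107716522, minus strand), its transmembrane gamma subunit. Stac3 on chromosome 10 (127501686 to 127508823, plus strand) encodes an adaptor that CaV1.1 needs to reach the membrane and to couple to RyR1. Ryr1 on chromosome 7 (29003344 to 29125179, minus strand) encodes the release channel. Jph1 on chromosome 1 (16964560 to 17097889, minus strand) and Jph2 on chromosome 2 (163336242 to 163397993, minus strand) encode the junctophilins. Trdn on chromosome 10 (33080554 to 33476709, plus strand) encodes triadin, which anchors calsequestrin to the release channel. Casq1 on chromosome 1 (172209894 to 172219868, minus strand) and Casq2 on chromosome 3 (102086415 to 102146514, plus strand) encode the skeletal and the cardiac calsequestrin, the calcium buffers of the reticulum.

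Per length, in TPM (counts divided by transcript length and scaled to the same sum in every library), Jph2 was the most abundant of the 10 in vehicle-treated cells at 0 h, at a mean of 27.1 TPM (26.2 to 28.9, n = 3), before Cacng1 at 13.5 and Cacnb1 at 5.53. Cacna1s was at 0, 0.05 and 0 CPM in these libraries, which is 1 count in all. At 48 h, the order per length with vehicle was led by Cacng1 at 353.5 and Casq2 at 236.4 TPM, with Jph2 at 132.6, Stac3 at 92.9, Cacnb1 at 91.5, Cacna1s at 65.9, Ryr1 at 26.2, Casq1 at 21.4, Jph1 at 20.6 and Trdn at 5.65 TPM. At 120 h Casq2 led, at 658.1 TPM with vehicle and 634 TPM with dox. The long Ryr1 transcript took many counts per library (496 to 872 CPM at 120 h with vehicle) at a modest level per length, 81.0 TPM.

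**Figure D2:**
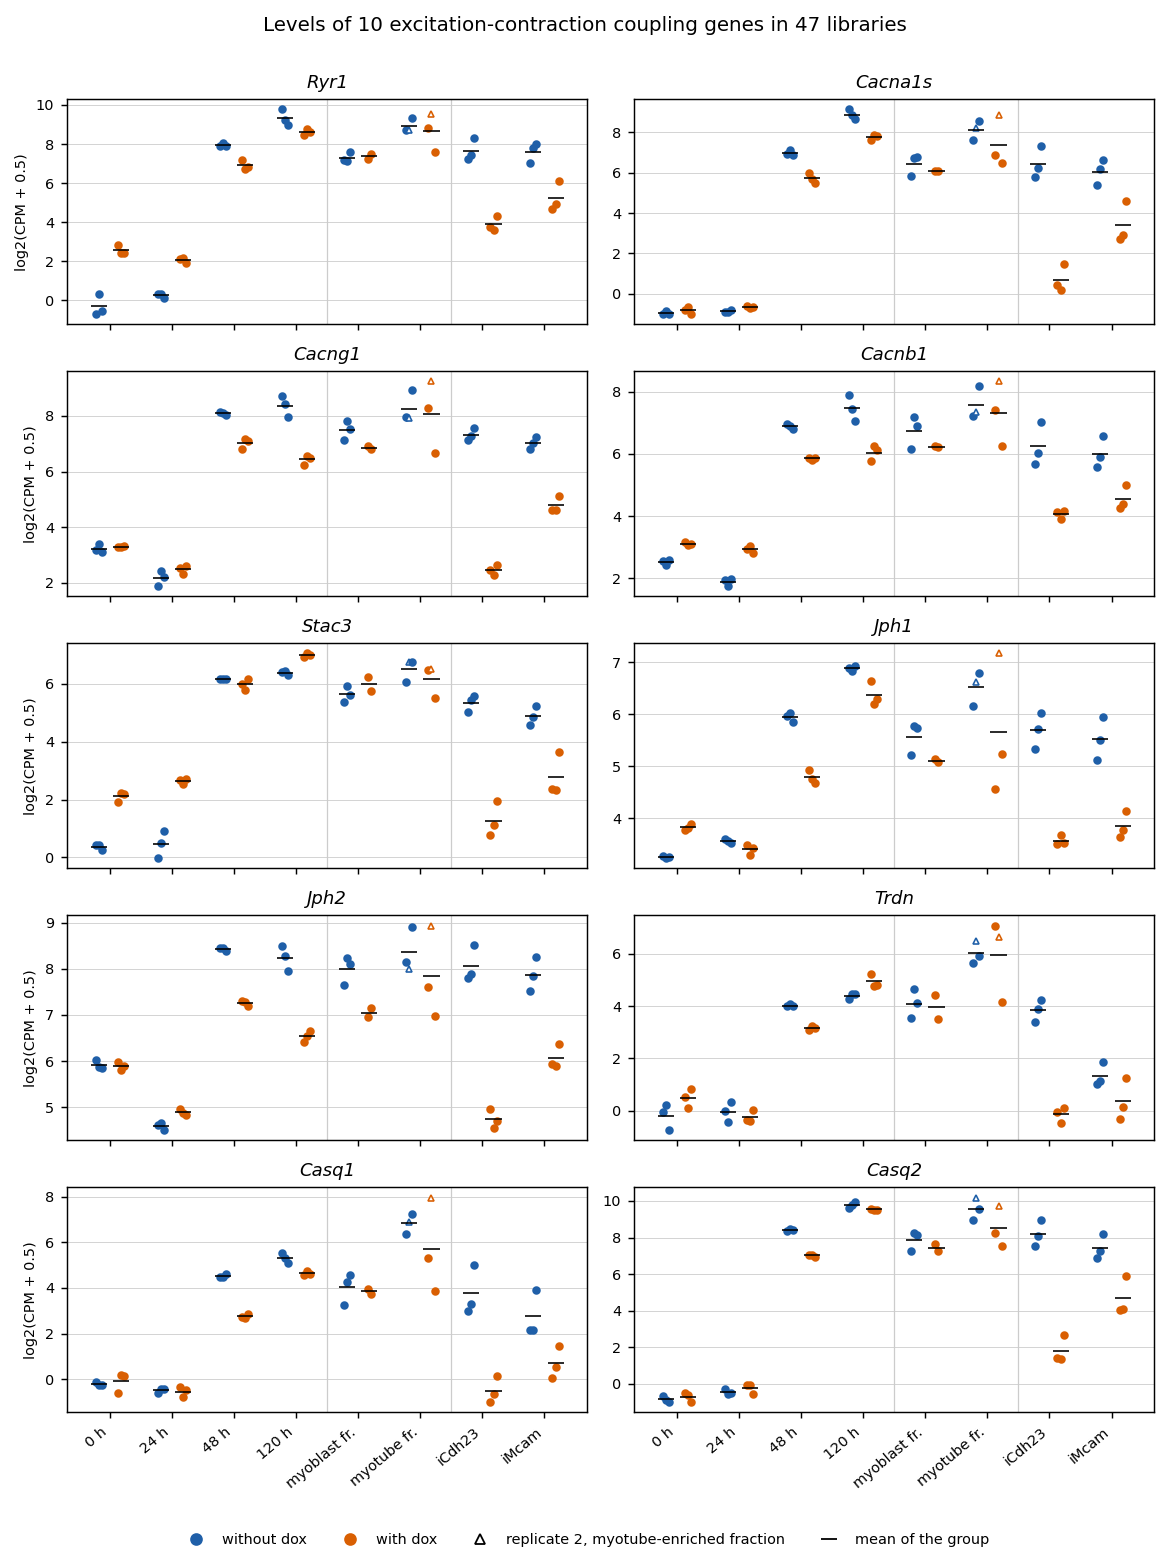
Level of each of the 10 triad genes as log2(CPM + 0.5) in the 16 groups of line, time, fraction and dox. Points are libraries and lines are group means. In iMyoD1 all 10 genes have lower group means at 0 and 24 h than at 48 and 120 h, and in iCdh23 with dox Cacna1s, Casq1 and Casq2 stay at or under 5.88 CPM.

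Each gene's 16 groups could be ordered by mean level, and many neighbours in that order overlapped. Of 15 neighbouring pairs of groups, 8 overlapped for Cacnb1, the fewest, and 13 for Casq1, the most. Ryr1, Cacna1s, Jph1 and Casq2 were highest in unseparated 120 h cultures with vehicle, at means of 654, 478, 118 and 884 CPM, each followed by the myotube-enriched fraction with vehicle. Unseparated and fraction libraries came from different deposited tables, so table and separation cannot be told apart in this order. For Ryr1 and Casq2 the libraries of these leading groups overlapped, and for Cacna1s and Jph1 they did not. Stac3 was highest at 120 h with dox, at 126 CPM, and did not overlap the next group, the myotube-enriched fraction with vehicle at 93.7 CPM. Jph2 was highest at 48 h with vehicle, at 344 CPM, overlapping the myotube-enriched fraction with vehicle at 340.1 CPM. Casq1 and Cacnb1 were highest in the myotube-enriched fraction with vehicle (116 and 200.1 CPM) and Trdn and Cacng1 in the same fraction with dox (83.8 and 339 CPM), each overlapping the group that followed. Without the 2 libraries labelled replicate 2, Cacng1 was highest in the myotube-enriched fraction with vehicle (366.1 CPM), Jph2 in that same group (382.8 CPM), and the leading groups of the other 8 genes were those given above.

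In cells kept in growth medium, 24 h of dox raised the release channel and its adaptor. Ryr1 stood at 0.119, 0.75 and 0.2 CPM in the vehicle libraries at 0 h, and at 6.73, 4.84 and 4.84 CPM in the dox libraries. Stac3 stood at 0.837, 0.85 and 0.699 CPM with vehicle and at 3.24, 4.21 and 4.04 CPM with dox. In both genes every dox library was above every vehicle library, and the changes were 3.89 ± 0.39 (SE) on the log2 scale for Ryr1 (edgeR adjusted p = 4.55e-06) and 2.27 ± 0.26 for Stac3 (adjusted p = 1.63e-05). The vehicle level of Ryr1 rested on 21 counts over 3 libraries and was highest in replicate 2. Its log2 fold change ran from 3.52 to 5.04 over the alternatives. Cacnb1, the beta subunit, rose by 0.65 ± 0.13 (adjusted p = 0.00173), and Jph1 by 0.60 ± 0.10 (adjusted p = 0.000322), and neither passed in a single fit over all 16 groups (adjusted p = 0.398 and 0.371). The voltage sensor itself was almost uncounted, since Cacna1s stayed at or under 0.145 CPM with dox. Of the 10 genes, 7 had enough counts to be tested at 0 h, of which 4 rose and 0 fell, where 19.1% of all genes tested rose. Jph2 differed by -0.01 (approximate 95% interval -0.14 to 0.12) and Cacng1 by 0.09 (-0.14 to 0.33), both on the log2 scale, and Trdn by 1.19 (0.20 to 2.19, adjusted p = 0.0791). The median over the 7 was 0.65, against 0.00 over all genes tested. The myotube markers Myog, Mymk, Myh3, Myh8, Ckm, Acta1 and Ttn moved with this result. They summed to 0.956 to 2.00 CPM with vehicle and 3.87 to 4.74 CPM with dox, with Myh8 at 0, and 2 of the 3 tested rose. The proliferating myoblast markers Mki67, Top2a, Ccnb1, Ccna2, Myf5 and Id3 summed to 2383 to 2394 CPM with vehicle and 2136 to 2207 CPM with dox, with 3 of 6 lower. The part of these lists in the result was not tested.

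At 24 h of differentiation the same release channel and adaptor were again higher with dox. Ryr1 was at 0.771, 0.745 and 0.589 CPM with vehicle and at 3.79, 4.07 and 3.31 CPM with dox. Stac3 was at 0.487, 0.922 and 1.39 CPM with vehicle and at 5.96, 5.25 and 6.02 CPM with dox. Neither gene's groups overlapped. Ryr1 was higher by 2.38 ± 0.20 on the log2 scale (edgeR adjusted p = 8.88e-07), Stac3 by 2.57 ± 0.25 (adjusted p = 2.4e-06), Cacnb1 by 1.12 ± 0.13 (adjusted p = 8.91e-06) and Jph2 by 0.28 ± 0.07 (adjusted p = 0.00326). The call of Jph2 did not pass in the fit over all 16 groups (adjusted p = 0.561). These 4 of 7 genes tested rose and 0 fell, where 31.1% of all genes tested rose. Cacng1 differed by 0.30 (adjusted p = 0.117) and passed without the vehicle replicate 2 (0.46, adjusted p = 0.0296). Jph1 was at 11.7, 11.2 and 11.1 CPM with vehicle and 10.7, 9.32 and 10.2 CPM with dox (-0.19, interval -0.36 to -0.01, adjusted p = 0.0836). Cacna1s was counted 15 times with dox and 4 times with vehicle over 3 libraries each, a ratio of 2.79 with a 95% counting interval of 0.889 to 11.6. Trdn differed by -0.46 (-1.39 to 0.48, adjusted p = 0.425). The myotube markers summed to 11.3 to 12.5 CPM with vehicle and to 10.52 to 11.51 CPM with dox at 24 h.

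The effect of dox differed between 0 and 24 h for 2 of the 7 genes tested. The dox effect on Ryr1 was smaller at 24 h by 1.56 ± 0.50 on the log2 scale (edgeR interaction test, log2 difference -1.56, adjusted p = 0.0232), a call lost without the 0 h vehicle replicate 1 (adjusted p = 0.071) or replicate 3 (adjusted p = 0.0845). The dox effect on Jph1 differed by -0.84 ± 0.12 (adjusted p = 4.43e-05), from 0.60 at 0 h to -0.19 at 24 h. Neither passed in the fit over all 16 groups (adjusted p = 0.379 and 0.429). Trdn (-1.70, adjusted p = 0.0972), Cacnb1 (0.43, adjusted p = 0.0712), Jph2 (0.24, adjusted p = 0.0596), Stac3 (0.26) and Cacng1 (0.16) did not pass. Both calls were lower at 24 h, where 20.7% of all genes tested were. Over all 14449 genes tested 1926 were higher and 2995 lower in this comparison, a share that 2 of 7 does not exceed. With upper-quartile scaling these were 3060 and 1831, and the median of all genes moved by 0.131.

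**Figure D3:**
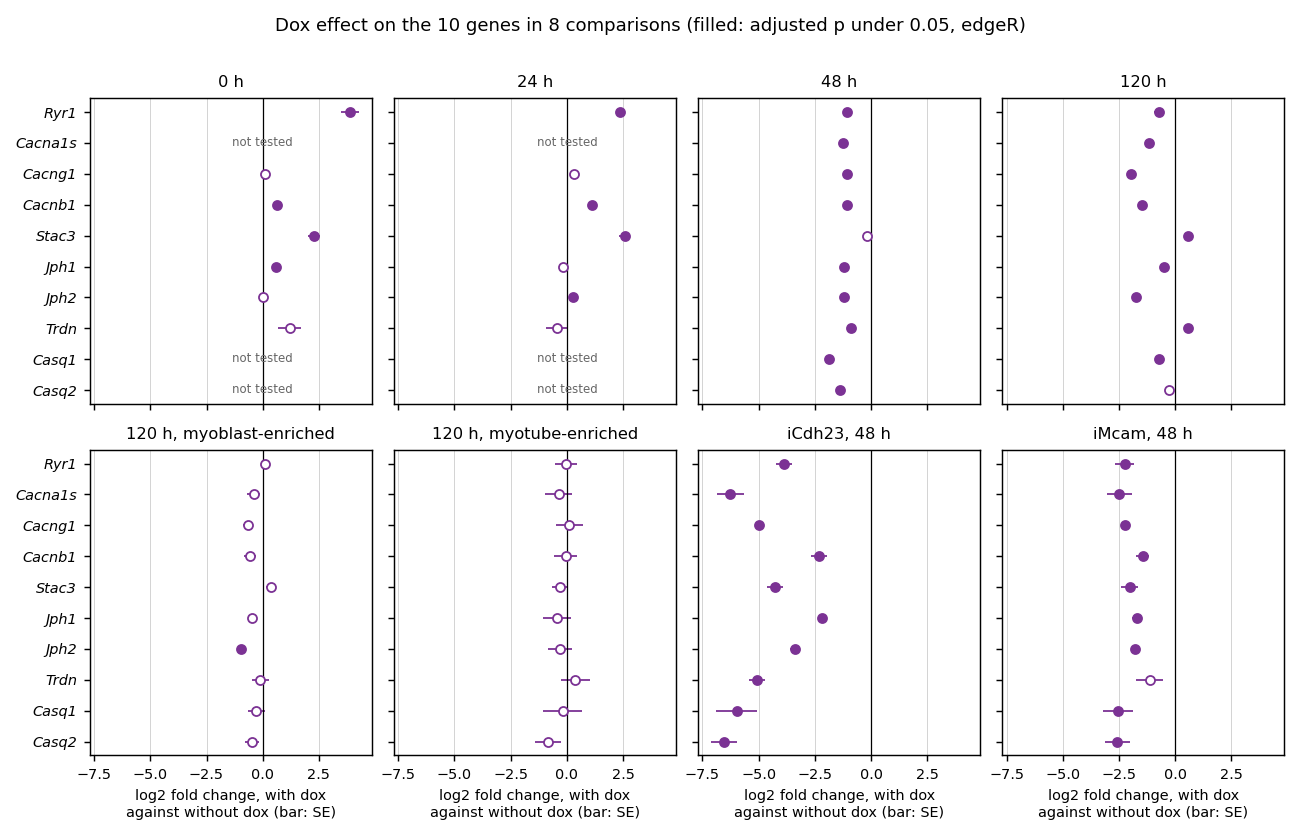
Log2 fold change of dox against vehicle for each of the 10 triad genes at 0, 24, 48 and 120 h, in both fractions, in iCdh23 and in iMcam, from edgeR, with bars of 1 SE to either side. Filled points had an adjusted p under 0.05. Ryr1 and Stac3 lie well above 0 at 0 and 24 h, 9 of the 10 genes lie below 0 at 48 h with a filled point, and Stac3 and Trdn are again above 0 at 120 h.

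Over the first 24 h of differentiation the triad genes did not rise together. Without dox, 1 of 7 genes tested rose, where 37.3% of all genes tested did, and 3 fell, where 37% did. Jph1 rose by 0.36 ± 0.10 on the log2 scale (edgeR adjusted p = 0.00576). Jph2, which is also known from cardiac muscle, was at 64.4, 58.1 and 57.4 CPM at 0 h and at 23.8, 24.8 and 22.2 CPM at 24 h, with no overlap, and fell by 1.31 ± 0.07 (adjusted p = 8.45e-10). Cacng1 fell by 1.07 ± 0.16 (adjusted p = 4.17e-05) and Cacnb1 by 0.67 ± 0.16 (adjusted p = 0.00155). In the fit over all 16 groups Jph1 (adjusted p = 0.399) and Cacnb1 (adjusted p = 0.162) did not pass. Ryr1 differed by 0.96 (adjusted p = 0.117) and passed the test without the 0 h vehicle replicate 2 (2.11, adjusted p = 0.00675). Trdn differed by 0.33 (interval -0.82 to 1.48) and Stac3 by 0.28 (-0.48 to 1.05). With dox, 1 of 7 rose, where 34% of all genes tested did, and 5 fell, where 34% did. Stac3 was the 1 that rose (0.60 ± 0.15, adjusted p = 0.00296), and Jph2, Cacng1, Jph1, Trdn and Ryr1 fell by 1.02, 0.86, 0.43, 1.31 and 0.57, while Cacnb1 differed by -0.19 (adjusted p = 0.15). The calls of Ryr1 and Trdn with dox were each lost without 1 of 2 libraries. For Ryr1 these were the 0 h dox replicate 1 (adjusted p = 0.0657) and the 24 h dox replicate 3 (adjusted p = 0.0533), and for Trdn the 0 h dox replicate 3 (adjusted p = 0.0664) and the 24 h dox replicate 1 (adjusted p = 0.0531). In the fit over all 16 groups Ryr1, Stac3, Jph1 and Trdn did not pass here (adjusted p between 0.13 and 0.298). In the same interval the myotube markers rose in 5 of 5 genes tested without dox and in 3 of 5 with dox. Markers of proliferating myoblasts went from a sum of 2383 to 2394 CPM to 557.5 to 609.3 CPM without dox, with 5 of 6 lower and 1 higher, and from 2136 to 2207 CPM to 571.7 to 586.3 CPM with dox, with 6 of 6 lower. Their part in the result was not tested.

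Between 24 and 48 h all 10 genes rose, with and without dox. Without dox, Casq2 went from 0.325, 0.177 and 0.208 CPM to 327, 347 and 339 CPM. Ryr1 reached 234, 270 and 240 CPM, and Cacna1s 124, 138 and 119 CPM. No gene's groups overlapped, where 39% of all genes tested were higher with no overlap. The changes on the log2 scale were 10.47 for Casq2, 8.47 ± 0.12 for Ryr1, 6.66 for Casq1, 6.22 for Stac3, 6.05 for Cacng1, 5.21 for Cacnb1, 4.96 for Trdn, 3.87 for Jph2 and 2.44 for Jph1 (edgeR adjusted p between 5.27e-16 and 2.28e-10). Cacna1s was counted 4 times over the 24 h vehicle libraries and 7304 times over the 48 h ones, a ratio of 2576 with a 95% counting interval of 1006 to 9458. The count of 10 of 10 stands beside 38.4% of all genes tested that rose, and the median over the members was 6.13 against -0.02 over all genes tested.

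With dox the same interval gave 10 of 10 higher as well, where 36.9% of all genes tested rose, with changes on the log2 scale of 8.59 for Casq2, 8.55 for Cacna1s, 5.02 for Ryr1, 4.93 for Casq1, 4.65 for Cacng1, 4.45 for Trdn, 3.42 for Stac3, 2.99 for Cacnb1, 2.37 for Jph2 and 1.40 for Jph1 and a median of 4.55. The summed myotube markers moved in the same interval from 11.3 to 12.5 CPM to 11610 to 12920 CPM without dox and from 10.5 to 11.5 CPM to 4555 to 4816 CPM with dox, with 7 of 7 higher in both. Those of proliferating myoblasts went from 557.5 to 609.3 CPM to 975.6 to 994.6 CPM without dox, with 5 of 6 higher and 1 lower, and from 571.7 to 586.3 CPM to 343 to 355.2 CPM with dox, with 2 of 6 higher and 4 lower. The cardiac muscle markers Nppa, Nppb, Myh6, Pln and Tnni3 went from a sum of 0.162 to 0.709 CPM to 6.86 to 7.84 CPM without dox. With dox they went from 0.407 to 0.590 CPM to 3.85 to 5.53 CPM. Mitochondrial genes went from 4.60 to 4.86% to 3.30 to 3.47% of counts without dox and from 4.41 to 4.90% to 3.70 to 4.12% with dox. What part these had in the result was not tested. In bulk libraries, more cells of a type and more RNA per cell cannot be told apart. The interval also crosses from libraries with no batch label to libraries that carry one.

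Promoter sequences were looked at because the members moved together in this interval. RefSeq promoter windows of GRCm38.p6 held 8 sequences for 6 of the 10 genes, and the 250 bases before each start were searched on both strands for the E-box CANNTG, to which MyoD1-like factors bind, for its form CAGCTG, which CANNTG contains, and for the MEF2 motif. Among all 32851 promoters, 66.22% held CANNTG, 13% held CAGCTG and 2.92% held a MEF2 motif. CANNTG was found in 5 of the 6 genes (Cacna1s, Cacnb1, Jph2, Casq1 and Casq2), CAGCTG in 3 (Cacna1s, Jph2 and Casq1) and MEF2 in 1, Casq2. These counts are per gene over all its sequences and the shares above are per sequence, so they are not like measures. Cacnb1 counts only through the sequence at chr11:98018373-98018622, inside the annotated gene, and its other sequence had no match. Both Jph2 sequences hold the same CAGCTG match. The sequences of the gene with the lowest count at 24 h, of both calsequestrins and of Ryr1 are shown on the coding strand, up to the annotated start of the gene, with CANNTG and MEF2 matches in capitals. Cacna1s (chr1:136052561-136052749, plus strand) has CAGCTG 123 bases before the RefSeq start, Casq1 (chr1:172219896-172220145, minus strand) 195 bases before it, and Casq2 (chr3:102086165-102086414, plus strand) has its MEF2 match 69 bases before it. Ryr1 (chr7:29125180-29125401, minus strand) has none of these letters in its window. A match is a description of letters, and binding was not measured here.
Cacna1s: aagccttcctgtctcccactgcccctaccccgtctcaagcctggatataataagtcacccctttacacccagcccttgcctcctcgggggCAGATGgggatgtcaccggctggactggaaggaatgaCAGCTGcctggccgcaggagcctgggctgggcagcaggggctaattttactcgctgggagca
Casq1: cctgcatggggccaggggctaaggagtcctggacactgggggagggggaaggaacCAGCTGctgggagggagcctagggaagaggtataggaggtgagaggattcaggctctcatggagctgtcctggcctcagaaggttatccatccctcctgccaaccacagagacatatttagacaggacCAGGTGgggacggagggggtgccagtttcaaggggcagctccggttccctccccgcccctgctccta
Casq2: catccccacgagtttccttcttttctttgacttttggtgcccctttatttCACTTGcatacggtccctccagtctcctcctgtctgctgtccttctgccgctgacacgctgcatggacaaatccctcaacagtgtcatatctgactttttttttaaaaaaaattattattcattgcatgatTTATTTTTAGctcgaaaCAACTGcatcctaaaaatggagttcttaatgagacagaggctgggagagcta
Ryr1: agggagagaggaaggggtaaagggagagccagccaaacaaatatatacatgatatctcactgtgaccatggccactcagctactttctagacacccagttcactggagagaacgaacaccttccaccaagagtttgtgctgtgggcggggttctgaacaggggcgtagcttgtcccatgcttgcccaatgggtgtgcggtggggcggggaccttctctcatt

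At 48 h, dox-treated iMyoD1 cultures had less of 9 of the 10 triad transcripts. Cacna1s was at 124, 138 and 119 CPM with vehicle and at 62.9, 51.3 and 44.4 CPM with dox. Casq1, the skeletal calsequestrin, was at 22, 22.1 and 23.7 CPM with vehicle and at 6.18, 5.99 and 6.68 CPM with dox. In these genes every dox library was below every vehicle library. On the log2 scale Casq1 fell by 1.87 ± 0.10, Casq2 by 1.39, Cacna1s by 1.27 ± 0.11, Jph1 and Jph2 by 1.19 each, Cacnb1 by 1.07, Cacng1 by 1.06, Ryr1 by 1.05 ± 0.12 and Trdn by 0.91 (edgeR adjusted p between 5.46e-08 and 3.26e-05). The voltage sensor with its subunits, the release channel and the junctophilins thus fell by 1.05 to 1.27. The call of Trdn did not pass in the fit over all 16 groups (adjusted p = 0.126). Stac3 was the exception, at 70.9, 71.9 and 70.4 CPM with vehicle and 62.9, 54.8 and 70.7 CPM with dox, overlapping by 1 library. Its change was -0.20 (interval -0.38 to -0.01, adjusted p = 0.101), and it passed without the dox replicate 3 (-0.29, adjusted p = 0.00887).

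The count of 9 lower stands beside 28.7% of all genes tested that fell at 48 h, and the median of the 10 was -1.13 against 0.01. All 7 myotube markers were lower with dox too, and their sum was 11610 to 12920 CPM with vehicle and 4555 to 4816 CPM with dox. The proliferating myoblast markers summed to 975.6 to 994.6 CPM with vehicle and 343 to 355.2 CPM with dox. The 10 triad genes, none of which is a myotube marker here, had a summed level equal to 12.5 to 13.6% of the separate sum of those markers with vehicle and to 15.4 to 16.3% of it with dox. The part of either marker list in the result was not tested.

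From 48 to 120 h without dox, 8 of the 10 genes rose further, where 33% of all genes tested rose. Cacna1s went from 124, 138 and 119 CPM to 564, 466 and 403 CPM, a change of 1.93 ± 0.12 on the log2 scale (edgeR adjusted p = 2.44e-06). Ryr1 went from 234, 270 and 240 to 872, 593 and 496 CPM (1.41 ± 0.18, adjusted p = 0.000121), and Casq2 rose equally, by 1.41. These genes at the core of release showed no overlap between times. Jph1 rose by 0.96, Casq1 by 0.82, Cacnb1 by 0.63, Trdn by 0.41 and Stac3 by 0.25 (adjusted p = 0.0219). The call of Stac3 was lost without 48 h replicate 1 (adjusted p = 0.0829), 2 (0.0641) or 3 (0.0798) or 120 h replicate 2 (0.079), and with upper-quartile scaling, under which the median of all genes moved by -0.117 (Stac3 0.13, adjusted p = 0.197), and without a low-count filter (adjusted p = 0.0613). The call of Cacnb1 was lost without the 48 h replicate 3 (adjusted p = 0.052). Cacnb1, Stac3, Trdn and Casq1 did not pass in the fit over all 16 groups (adjusted p between 0.109 and 0.482). Cacng1 (0.32, adjusted p = 0.0993) and Jph2 (-0.15, adjusted p = 0.292) did not pass, with intervals of 0.01 to 0.62 and -0.39 to 0.09. Cacng1 passed without the 120 h replicate 3 (0.49, adjusted p = 0.000383), and Jph2 passed as lower without the 120 h replicate 1 (-0.28, adjusted p = 0.0293). The proliferating myoblast markers fell in 6 of 6 genes, from a sum of 975.6 to 994.6 CPM to 214.1 to 240.5 CPM, and the myotube markers, 4 of 7 higher and 3 lower, went from 11610 to 12920 CPM to 13670 to 16890 CPM. Genes with a count numbered 18085 to 18444 in the 48 h and 16382 to 17009 in the 120 h libraries. The part of these in the result was not tested.

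With dox, 7 of the 10 genes rose from 48 to 120 h and 2 fell. Casq2 went from 134, 133 and 124 CPM to 756, 736 and 739 CPM, a rise of 2.52 ± 0.09 on the log2 scale (edgeR adjusted p = 1.94e-10). Cacna1s, Casq1, Trdn, Ryr1, Jph1 and Stac3 rose by 2.04, 1.98, 1.87, 1.71, 1.62 and 1.02. Jph2 went the other way, from 157, 155 and 145 CPM to 84.7, 93.1 and 99.7 CPM, and fell by 0.71 ± 0.09 (adjusted p = 1e-05). Cacng1 fell by 0.60 ± 0.11 (adjusted p = 0.000333), a call that did not pass in the fit over all 16 groups (adjusted p = 0.0874). Of all genes tested 34.9% rose and 38.6% fell. Cacnb1 differed by 0.22 (adjusted p = 0.116), and it passed without the 120 h dox replicate 1 (0.36, adjusted p = 0.0045). The myotube markers went from a sum of 4555 to 4816 CPM to 9245 to 10900 CPM, with 4 of 7 higher and 3 lower, and the proliferating myoblast markers from 343 to 355.2 CPM to 391.3 to 465.8 CPM. Mitochondrial genes went from 3.70 to 4.12% to 6.09 to 6.98% of counts, and genes with a count from 18438 to 20186 to 16420 to 16873. The part of these in the result was not tested.

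At 120 h, 7 of the 10 triad genes were lower with dox. Among the voltage sensor genes, Cacng1 was at 416, 341 and 249 CPM with vehicle and at 74.7, 94.7 and 89.7 CPM with dox. Jph2 was at 359, 309 and 247 CPM with vehicle and 84.7, 93.1 and 99.7 CPM with dox. Stac3 was higher with dox, at 85, 85.8 and 78.7 CPM with vehicle and 120, 131 and 126 CPM with dox. None of the 10 genes had overlapping groups, as was so for 55.3% of all genes tested. Cacng1 fell by 1.97 ± 0.18 on the log2 scale (edgeR adjusted p = 3.12e-05), Jph2 by 1.74 ± 0.14 (adjusted p = 1.38e-05), Cacnb1 by 1.47 ± 0.21 (adjusted p = 0.00044) and Cacna1s by 1.15 ± 0.13 (adjusted p = 0.000108). Smaller decreases were measured for Ryr1 (-0.74 ± 0.19, adjusted p = 0.0102), Casq1 (-0.71 ± 0.13, adjusted p = 0.00224) and Jph1 (-0.51 ± 0.12, adjusted p = 0.0062). These 7 of 10 lower stand beside 23.7% of all genes tested that fell.

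Stac3 rose by 0.58 ± 0.08 with dox at 120 h (edgeR adjusted p = 0.000524), and Trdn, at 18.8, 21.4 and 21.3 CPM with vehicle and 37.3, 26.8 and 27.9 CPM with dox, by 0.57 ± 0.15 (adjusted p = 0.0137). These 2 of 10 are a share near the 21.4% of all genes tested that rose. The call of Trdn was lost without the dox replicate 1 (0.40, adjusted p = 0.0544). In the fit over all 16 groups Ryr1, Casq1, Jph1, Stac3 and Trdn did not pass at 120 h (adjusted p between 0.0917 and 0.36). Casq2 was at 782, 879 and 993 CPM with vehicle and 756, 736 and 739 CPM with dox. Its change of -0.26 did not pass (interval -0.46 to -0.07, adjusted p = 0.0528), and it passed without the vehicle replicate 1 (-0.35, adjusted p = 0.00679) or without a low-count filter (-0.28, adjusted p = 0.0335). The myotube markers summed to 13670 to 16890 CPM with vehicle and 9245 to 10900 CPM with dox, with 4 of 7 lower and 1 higher. The proliferating myoblast markers went the other way than at 48 h, from 214.1 to 240.5 CPM with vehicle to 391.3 to 465.8 CPM with dox, with 4 of 6 higher and 0 lower. Mitochondrial genes took 3.62 to 5.38% of counts with vehicle and 6.09 to 6.98% with dox at 120 h, 3.30 to 3.47% and 3.70 to 4.12% at 48 h. The part of these in the result was not tested.

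The dox effects at 48 and 120 h were compared gene by gene with an interaction term. Trdn differed most, by 1.48 ± 0.18 on the log2 scale (edgeR adjusted p = 2.85e-05), from -0.91 at 48 h to 0.57 at 120 h. Casq1 (1.17 ± 0.16, adjusted p = 9.33e-05), Casq2 (1.13 ± 0.12, adjusted p = 1.07e-05), Stac3 (0.78 ± 0.13, adjusted p = 0.000574) and Jph1 (0.67 ± 0.15, adjusted p = 0.00399) also had higher dox effects at 120 h. These 5 of 10 stand beside 16.8% of all genes tested. Cacng1 (-0.90 ± 0.21, adjusted p = 0.00521) and Jph2 (-0.54 ± 0.15, adjusted p = 0.0149) had lower ones, 2 of 10 beside 17.2%. For Cacna1s the difference was 0.12 with an interval of -0.24 to 0.49, and for Ryr1 it was 0.31 with an interval of -0.18 to 0.80, a difference that passed without the 120 h vehicle replicate 1 (0.57, adjusted p = 0.0343). Cacnb1 differed by -0.40 and passed without the 120 h vehicle replicate 3 (-0.58, adjusted p = 0.0219). In the fit over all 16 groups none of these 7 calls passed (adjusted p between 0.0934 and 0.374).

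The balance between paralogs was compared per length within each library. Casq2, the cardiac calsequestrin, exceeded Casq1 in every 48 h and 120 h group. The ratio was 11.1 at 48 h with vehicle (10.7 to 11.7 over 3 libraries) and 14.3 with dox (12.5 to 15.8), and at 120 h it was 16.4 with vehicle (12.1 to 21.0) and 22.2 with dox (20.6 to 23.9). The lowest of these ratios were in the myotube-enriched fraction, 5.34 with vehicle (3.82 to 7.54) and 5.60 with dox (2.54 to 10.7), where the myoblast-enriched fraction had 11.4 (8.84 to 12.8) and 8.55 (7.68 to 9.41). The vehicle ranges of the fractions did not overlap. The libraries labelled replicate 2 had 7.54 with vehicle and 2.54 with dox, and the others had 4.65 and 3.82 with vehicle and 3.55 and 10.7 with dox.

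Jph2 and Jph1, the junctophilins, changed their balance with time and dox. The ratio of Jph2 to Jph1 per length was 7.60 at 0 h (7.26 to 8.05) and 2.39 at 24 h (2.30 to 2.52) with vehicle, and with dox it was 4.95 at 0 h (4.69 to 5.44) and 3.31 at 24 h (3.12 to 3.56). Dox and vehicle libraries did not overlap at either time, with dox below vehicle at 0 h and above it at 24 h. At 48 h it was 6.44 with vehicle (6.20 to 6.62) and 6.46 with dox (6.02 to 6.70), which overlap. At 120 h it was 2.80 with vehicle (2.20 to 3.34) and 1.17 with dox (0.873 to 1.46), which do not. In the fractions with vehicle it was 6.21 (5.99 to 6.37) in the myoblast-enriched and 4.17 (2.97 to 4.99) in the myotube-enriched libraries, where 2.97 was the library labelled replicate 2. With dox it was 4.08 and 4.84 in the myoblast-enriched libraries and 9.55, 3.92 and 3.88 in the myotube-enriched replicates 1, 2 and 3. The higher mean of the latter, 5.78 against 4.46, rested on replicate 1, and the other two lay below both myoblast-enriched libraries. In iCdh23 it was 5.98 with vehicle and 2.68 with dox (2.13 to 3.24), and in iMcam 5.87 and 5.498. With 3 libraries in a group, no exact permutation test of such a ratio can go below p = 0.1, so that these values are a description.

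**Figure D4:**
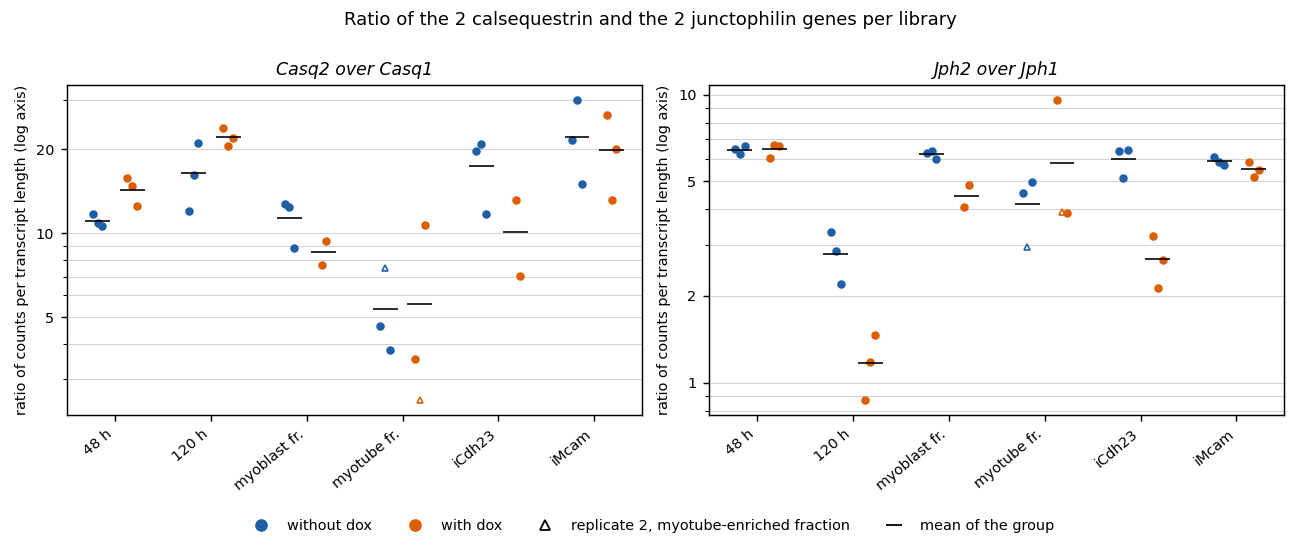
Ratio of Casq2 to Casq1 and of Jph2 to Jph1 per transcript length, on a log axis, in the groups from 48 h on and in iCdh23 and iMcam. Points are libraries and lines are group means, and a library with Casq1 at 0 has no Casq2 to Casq1 point. The mean Jph2 to Jph1 ratio falls from 6.44 at 48 h to 2.80 at 120 h with vehicle and from 6.46 to 1.17 with dox.

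Cacna1s is spliced with or without an exon of 57 bases, exon 29 of 44 in the transcript that holds it, at chr1:136104570-136104626 on the plus strand of GRCm38. It adds 19 codons to a loop next to a voltage-sensing segment. The adult form of CaV1.1 includes this exon, and the form that omits it is known as embryonic and passes more calcium current. The exon is shown in capitals between the last 20 and the first 20 bases of the exons that flank it.
Cacna1s exon 29: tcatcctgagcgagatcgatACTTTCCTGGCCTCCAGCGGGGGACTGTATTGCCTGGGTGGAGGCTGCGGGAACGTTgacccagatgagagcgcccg

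Of 4 annotated transcripts that span this place, 2 hold the exon, and its inclusion was estimated from their share of the Cacna1s transcripts per length. At 48 h, inclusion with vehicle was 31.8, 36.2 and 41.6% (mean 36.5 ± 4.90%, SD, n = 3), and with dox 32.2, 21.3 and 43.0%. At 120 h, it was 24.8, 17.6 and 21.8% with vehicle (21.4 ± 3.64%) and 24.3, 28.0 and 31.3% with dox (27.9 ± 3.48%). The 48 h and 120 h vehicle libraries did not overlap, and the vehicle and dox libraries overlapped at both times. A non-coding processed transcript of Cacna1s took 11.18 to 14.15% of its counts at 48 h with vehicle, 8.99 to 21.41% in the myoblast-enriched and 6.55 to 15.59% in the myotube-enriched vehicle libraries, and 0% in the unseparated 120 h libraries with and without dox. Its part in the lower inclusion there was not tested. The unseparated and the fraction libraries came from different deposited tables, so table and separation cannot be told apart. In the myotube-enriched fraction inclusion was 38.1, 45.9 and 34.8% with vehicle (39.6 ± 5.71%) and 38.0, 45.7 and 41.6% with dox. The spanning transcripts there held as few as 507.8 estimated counts in a dox library, against at least 3375.9 with vehicle. In the myoblast-enriched fraction it was 24.0, 32.8 and 35.3% with vehicle (mean 30.7%) and 33.0 and 40.2% with dox. In iMcam it was 33.6, 26.2 and 26.5% with vehicle and 21.0, 24.7 and 21.1% with dox, which do not overlap, and in iCdh23 with vehicle it was 30.2, 31.7 and 27.8%. The iCdh23 dox libraries, with as few as 15.2 estimated counts, gave no usable value. These shares are model estimates for transcripts that share most of their bases, and no exact test of 3 against 3 can go below p = 0.1. The same estimate for a 15-base exon of Ryr1 ran from 16.04 to 63.21% among the 48 h vehicle libraries and was not read further.

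**Figure D5:**
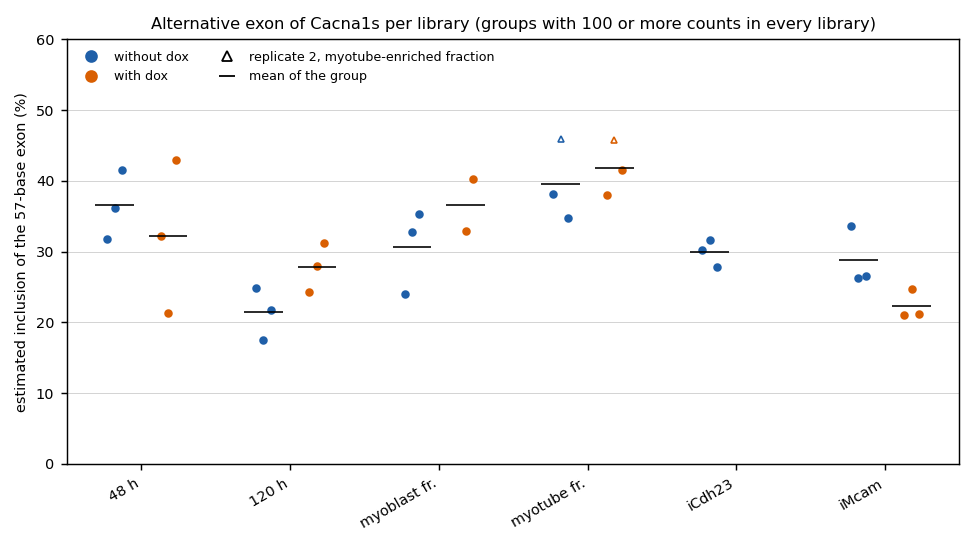
Inclusion of the 57-base exon of Cacna1s in percent of spanning transcripts, by group, for groups with enough counts. Points are libraries and lines are group means. The unseparated 120 h vehicle libraries, at 17.6 to 24.8%, lie below the 48 h vehicle libraries, at 31.8 to 41.6%, and the myotube-enriched libraries, at 34.8 to 45.9%. The myotube-enriched libraries came from another deposited table.

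When 120 h cultures were separated, Casq1 and Ryr1 were higher in the retained fraction. Without dox, Casq1 was at 9.08, 18.9 and 23.2 CPM in the myoblast-enriched and at 82.1, 118 and 149 CPM in the myotube-enriched libraries, a difference of 2.79 ± 0.36 on the log2 scale (edgeR adjusted p = 0.0349). Ryr1 was at 144, 140 and 190 CPM against 418, 422 and 635 CPM (1.66 ± 0.23, adjusted p = 0.0359). The libraries of the fractions did not overlap for 9 of the 10 genes, the exception being Jph2, with and without the library labelled replicate 2. Of all genes tested, 10.8% were higher in the myotube-enriched fraction with no overlap, and 15.2% without that library. Only Ryr1 and Casq1 passed the test, 2 of 10 beside 0.578% of all genes tested that were higher. Trdn (1.95, adjusted p = 0.0509), Casq2 (1.75, adjusted p = 0.0849), Cacna1s (1.71, adjusted p = 0.0665) and Jph1 (0.99, adjusted p = 0.0939) did not, nor did Stac3 (0.93), Cacnb1 (0.87), Cacng1 (0.84) and Jph2 (0.42).

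The replicate numbers were taken to pair the vehicle libraries of the fractions from correlations of 0.412, 0.117 and 0.189 in these same data. The myotube-enriched replicate 3 correlated best with the myoblast-enriched replicate 2, so the pairing is uncertain. With the number as a block 7 genes passed, where 3.17% of all genes tested were higher. Beside Ryr1 and Casq1 these were Trdn (1.97, edgeR adjusted p = 0.00328), Cacna1s (1.72, adjusted p = 0.00468), Casq2 (1.72, adjusted p = 0.0065), Jph1 (0.99, adjusted p = 0.0133) and Stac3 (0.91, adjusted p = 0.0219). This block holds the library labelled replicate 2, and without that library it called all 10 higher, from 0.67 for Jph2 to 2.93 for Casq1 (adjusted p between 4.18e-13 and 0.00202), where 9.89% of all genes tested were, in a fit with few residual degrees of freedom. Both original calls were lost without the myotube-enriched replicate 3 (Ryr1 adjusted p = 0.104, Casq1 0.114) and without any of the myoblast-enriched replicates 1, 2 and 3 (Ryr1 0.164, 0.139 and 0.147, Casq1 0.131, 0.135 and 0.14). Without the myotube-enriched replicate 1, 7 genes passed, where 1.53% of all genes tested were higher. Without the 2 libraries labelled replicate 2, the differences were 1.75 for Ryr1 (adjusted p = 0.0427) and 2.77 for Casq1 (adjusted p = 0.048). The myotube markers summed to 5629 to 8212 CPM in the myoblast-enriched and 12360 to 18750 CPM in the myotube-enriched vehicle libraries, so that the passing fraction also held muscle transcripts. The proliferating myoblast markers summed to 424.8 to 1027 CPM and 148.2 to 576.4 CPM, and the cardiac muscle markers Nppa, Nppb, Myh6, Pln and Tnni3 to 4.54 to 16.2 CPM and 9.89 to 71.2 CPM in the same libraries. Mitochondrial genes took 4.09 to 7.27% of counts in the myoblast-enriched and 7.32 to 11.34% in the myotube-enriched libraries. Without the library labelled replicate 2, the myotube-enriched libraries held 12430 and 18750 CPM of myotube, 576.4 and 300.9 CPM of proliferating and 17.4 and 71.2 CPM of cardiac markers, and 8.92 and 7.32% mitochondrial counts. The part of these in the result was not tested.

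Dox effects within the fractions were seldom resolved in fits without a replicate block. In the myoblast-enriched fraction, Jph2 was at 200, 299 and 276 CPM with vehicle and 124 and 141 CPM with dox, and fell by 0.96 ± 0.20 on the log2 scale (edgeR adjusted p = 0.0437). This was 1 of 10 genes, beside 2.52% of all genes tested that fell. The call was lost without the vehicle replicate 3 (adjusted p = 0.163), the dox replicate 2 (0.303) or the dox replicate 3 (0.135), and in the fit over all 16 groups (0.0626). Ryr1 was at 144, 140 and 190 CPM with vehicle and 149 and 182 CPM with dox, a difference of 0.08 with an interval of -0.27 to 0.43. Cacng1 differed by -0.66 (adjusted p = 0.118). The groups of Jph2, Cacng1 and Jph1 did not overlap, 3 of 10 genes, beside 40.6% of all genes tested. Cacnb1 (-0.57), Jph1 (-0.48), Casq2 (-0.48), Cacna1s (-0.41), Stac3 (0.37), Casq1 (-0.28) and Trdn (-0.12) did not pass either (adjusted p between 0.204 and 0.886). The myotube markers summed to 5629 to 8212 CPM with vehicle and 4195 and 4587 CPM with dox in this fraction, with 2 of 7 lower, and the proliferating myoblast markers to 424.8 to 1027 CPM and 352.6 and 673.1 CPM, with 1 of 6 higher. Their part in the result was not tested. Without the vehicle replicate 1, Cacna1s (-0.66, adjusted p = 0.0475), Cacng1 (-0.82, adjusted p = 0.0457) and Cacnb1 (-0.82, adjusted p = 0.0451) passed beside Jph2, where 2.93% of all genes tested fell. With the replicate number as a block, on only 2 pairs with correlations of 0.432 and 0.301, 7 members were lower. In that fit 14.5% of all genes tested fell.

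In the myotube-enriched fraction, the groups of all 10 genes overlapped. Casq1 was at 82.1, 118 and 149 CPM in the libraries labelled vehicle and at 38.9, 250 and 14.2 CPM in those labelled dox. Cacna1s was at 200, 295 and 374 CPM and at 117, 460 and 89 CPM. The library labelled dox replicate 2 was the highest of the dox libraries for both. With edgeR no member and 0 of all genes tested passed, 79 genes had an unadjusted p under 0.05, and DESeq2 called 1 gene higher and 1 lower. The intervals were wide, from -1.55 to 0.82 for Cacna1s (log2 fold change -0.36) and from -1.87 to 1.49 for Casq1 (-0.19), and the other differences were -0.85 for Casq2, -0.44 for Jph1, -0.31 for Jph2, -0.30 for Stac3, -0.06 for Cacnb1, -0.04 for Ryr1, 0.10 for Cacng1 and 0.38 for Trdn. Without the 2 libraries labelled replicate 2, still 0 genes passed, 1275 had an unadjusted p under 0.05, and the log2 fold changes of the libraries labelled dox were -2.07 for Casq1 (adjusted p = 0.384), -1.56 for Jph1 (0.372), -1.44 for Cacna1s (0.423), -1.29 for Casq2, -1.21 for Jph2, -0.79 for Cacnb1, -0.76 for Cacng1, -0.65 for Ryr1, -0.34 for Stac3 and 0.54 for Trdn. The groups of Cacna1s, Jph1, Jph2, Casq1 and Casq2 did not then overlap, 5 of 10 beside 42.4% of all genes tested, and 2.7% with all libraries. The myotube markers summed to 12430, 12360 and 18750 CPM in the libraries labelled vehicle and to 12430, 17970 and 4566 CPM in those labelled dox, in the order of replicates. The dox replicate 3 was thus near the myoblast-enriched dox libraries, at 4195 and 4587 CPM. The part of these markers in the result was not tested.

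With dox, the comparison of the myotube-enriched with the myoblast-enriched fraction gave differences on the log2 scale of 2.89 for Casq1, 2.42 for Trdn, 1.75 for Cacna1s, 1.59 for Cacng1, 1.53 for Ryr1, 1.37 for Cacnb1 and Casq2, 1.06 for Jph2, 1.02 for Jph1 and 0.24 for Stac3, and no call by edgeR among the members or among all genes tested (182 genes with an unadjusted p under 0.05, and 7 higher and 0 lower by DESeq2). In the fit over all 16 groups Trdn, Cacng1, Casq1 and Ryr1 did pass (edgeR adjusted p between 0.0255 and 0.0489). In that fit 0.848% of all genes tested were higher. With these groups fitted alone and the libraries labelled replicate 2 left out, the count was again 0, with 81 genes at an unadjusted p under 0.05. The differences then ran from -0.17 for Jph1 to 2.29 for Trdn. The difference between the dox effects in the fractions was likewise called for 0 genes by edgeR (217 at an unadjusted p under 0.05, 391 without those libraries), and DESeq2 called 1 higher and 1 lower. For the members it was 0.73 for Cacng1, 0.63 for Jph2, 0.49 for Cacnb1, 0.47 for Trdn, 0.07 for Casq1, 0.02 for Cacna1s and Jph1, -0.14 for Ryr1, -0.39 for Casq2 and -0.70 for Stac3.

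In iCdh23, dox-treated cultures had less of all 10 triad transcripts at 48 h. Cacna1s was at 55.5, 74.7 and 158 CPM with vehicle and at 0.876, 0.629 and 2.25 CPM with dox. Casq2 was at 182, 267 and 495 CPM with vehicle and at 2.13, 2.08 and 5.88 CPM with dox. Trdn was at 10.1, 14.4 and 18.3 CPM with vehicle and at 0.459, 0.232 and 0.571 CPM with dox. None of the 10 genes had overlapping groups, where 35% of all genes tested were lower with no overlap. The decreases on the log2 scale were 6.54 ± 0.59 for Casq2 (edgeR adjusted p = 6.4e-05), 6.26 ± 0.59 for Cacna1s (adjusted p = 8.06e-05), 5.98 for Casq1, 5.08 for Trdn, 4.99 for Cacng1, 4.28 for Stac3, 3.87 for Ryr1, 3.38 for Jph2, 2.32 for Cacnb1 and 2.20 for Jph1. The 10 of 10 lower stand beside 32.4% of all genes tested that fell, and the median was -4.63 against 0.00. The ones that kept most were Cacnb1, at 17.1, 14.4 and 17.6 CPM, and Jph1, at 10.8, 12.3 and 10.9 CPM. Casq1 was near the floor with dox, at 0 to 0.880 TPM, and its log2 fold change ran from -7.71 to -5.05 over the alternatives.

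In iMcam 9 of the 10 genes fell. Cacna1s was at 41, 71.6 and 97.8 CPM with vehicle and at 6.02, 6.93 and 23.4 CPM with dox, and Casq2 at 116, 153 and 291 CPM and at 15.8, 16.7 and 59.4 CPM. The dox replicate 3 library was the highest of the dox libraries for each of these genes, and no groups overlapped for 9 of the 10, where 31.6% of all genes tested were lower with no overlap. Mitochondrial genes took 3.02 to 3.23% of counts with vehicle and 3.43 to 4.87% with dox, and the part of this in the result was not tested. Casq2 fell by 2.57 ± 0.57 on the log2 scale (edgeR adjusted p = 0.00826), Casq1 by 2.55 ± 0.67 (adjusted p = 0.0167), Cacna1s by 2.49 ± 0.55 (adjusted p = 0.00759), Ryr1 by 2.25, Cacng1 by 2.22, Stac3 by 2.03, Jph2 by 1.78, Jph1 by 1.69 and Cacnb1 by 1.45. The count of 9 lower stands beside 24.8% of all genes tested. The call of Casq1 was lost without the dox replicate 1 (adjusted p = 0.0531) or 2 (0.0627). Trdn was at 1.55, 1.68 and 3.1 CPM with vehicle and 0.294, 0.611 and 1.89 CPM with dox (-1.13, adjusted p = 0.158), and passed without the dox replicate 3 (-2.17, adjusted p = 0.0164). The replicate numbers paired these libraries, and with the number as a block Trdn passed (-1.28, adjusted p = 0.0261).

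The lines were compared directly as well. Without dox, Trdn was higher in iCdh23 than in iMcam by 2.73 ± 0.33 on the log2 scale (edgeR adjusted p = 0.0321), the 1 call among 10 beside 0.182% of all genes tested. This call was lost without the iCdh23 replicate 2 (adjusted p = 0.205) or 3 (0.0517) or the iMcam replicate 1 (0.12) or 2 (0.197). Cdh23 itself was at 348 to 451 CPM in the iCdh23 and at 5.61 to 8.87 CPM in the iMcam vehicle libraries. Its part in the differences between lines was not tested. Casq1 (1.09), Casq2 (0.75), Cacna1s (0.45), Stac3 (0.44), Cacng1 (0.29), Cacnb1 (0.29), Jph2 (0.19), Jph1 (0.15) and Ryr1 (0.07) overlapped between the lines and did not pass (adjusted p between 0.485 and 0.953). With dox, 7 of 10 were lower in iCdh23, where 19.2% of all genes tested were. These were Cacna1s (-3.29 ± 0.62, adjusted p = 0.00362), Casq2 (-3.20 ± 0.60, adjusted p = 0.00342), Cacng1 (-2.47 ± 0.17, adjusted p = 2.63e-05), Stac3 (-1.78), Ryr1 (-1.52), Jph2 (-1.38) and Cacnb1 (-0.56). The call of Cacnb1 was lost without any of the iCdh23 dox replicates 1 (adjusted p = 0.0729), 2 (0.139) and 3 (0.0738) or the iMcam dox replicate 3 (0.0754), and that of Stac3 without the iCdh23 dox replicate 2 (0.0552). Casq1 (-2.32, adjusted p = 0.0531), Trdn (-1.19, adjusted p = 0.178) and Jph1 (-0.34, adjusted p = 0.0879) did not pass. Jph1 passed without the iMcam dox replicate 1 (-0.44, adjusted p = 0.0458), and Casq1 without the iCdh23 dox replicate 3 (-4.05, adjusted p = 0.0151), without the iMcam dox replicate 1 (-2.68, adjusted p = 0.0415), without a low-count filter (adjusted p = 0.00795) and in DESeq2 (adjusted p = 0.0244).

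The dox effect itself was lower in iCdh23 than in iMcam for 6 of the 10 genes by the interaction test, beside 7.61% of all genes tested. The differences were -3.95 ± 0.86 for Casq2 (edgeR adjusted p = 0.0141), -3.92 ± 0.78 for Trdn (adjusted p = 0.00891), -3.74 ± 0.88 for Cacna1s (adjusted p = 0.0199), -2.75 ± 0.25 for Cacng1 (adjusted p = 0.000179), -2.22 ± 0.56 for Stac3 (adjusted p = 0.0269) and -1.57 ± 0.33 for Jph2 (adjusted p = 0.0113). The call of Cacna1s was lost without the iCdh23 dox replicate 1 (adjusted p = 0.0528) or 2 (0.0633). The call of Stac3 was lost without any of 6 libraries, the vehicle replicate 2 and dox replicates 1 and 2 of iCdh23 and the vehicle replicates 1 and 2 and dox replicate 3 of iMcam (adjusted p between 0.056 and 0.0796). Ryr1, Casq1, Cacnb1 and Jph1 differed by -1.59, -3.40, -0.84 and -0.48 and did not pass. Casq1 passed without the iMcam vehicle replicate 3 (-4.35, adjusted p = 0.0427), Ryr1 in the fit over all 16 groups (-1.59, adjusted p = 0.0497), and both with the replicate number as a block (Ryr1 adjusted p = 0.00331, Casq1 0.000383), although the numbers did not pair the libraries of iCdh23. In iCdh23, Cdh23 itself differed by 0.32 with dox (edgeR adjusted p = 0.102), from an already high vehicle level. The myotube markers moved with these results. They summed to 5004 to 8588 CPM with vehicle and 34.2 to 115.8 CPM with dox in iCdh23, and to 3741 to 9171 CPM and 491.3 to 1552 CPM in iMcam. The proliferating myoblast markers went from 690.8 to 967.1 CPM to 99.99 to 130.4 CPM in iCdh23 and from 631.1 to 756.9 CPM to 129.1 to 214.4 CPM in iMcam. The cardiac muscle markers summed to 2.35 to 5.42 CPM with vehicle and 0.321 to 0.463 CPM with dox in iCdh23. In iMcam they summed to 1.55 to 2.78 CPM and 0.357 to 1.15 CPM. Markers of endothelial, blood, fat, bone and nerve cells summed to at most 1.19 CPM in any library of the series. The part of these lists in the results was not tested.

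A further 17 genes of the triad and the calcium store were followed as a list, among them Jsrp1, a binding partner of CaV1.1 and calsequestrin, Hrc, a calcium-binding protein of the store, Stim1, its calcium sensor, and S100a1, a calcium-binding modulator of RyR1. At 0 h 10 of 16 tested rose with dox and 1 fell, where 19.1% of all genes tested rose and 18.7% fell, and at 24 h 12 of 16 rose and 2 fell, beside 31.1% and 31.7%. Jsrp1 rose most, by 2.24 at 0 h and 2.64 at 24 h on the log2 scale, and Fkbp1a, which binds RyR1, was the lowest, at -0.22 and -0.53. At 48 h 3 of 17 rose and 7 fell, beside 27.9% and 28.7%, from -1.40 for Srl to 1.21 for S100a1, and at 120 h 6 rose and 3 fell, beside 21.4% and 23.7%, from -1.36 for Tmem38b to 1.27 for S100a1. In iCdh23 5 of 16 rose, near the 31.3% of all genes tested that did, and 9 fell, beside 32.4%, with Hrc at -5.53 and Stim1 at 1.10. In iMcam 4 of 16 rose and 7 fell, beside 24.2% and 24.8%, with Hrc at -2.46 and Stim1 at 0.96. From 24 to 48 h without dox all 17 rose, beside 38.4%, from 0.27 for Fkbp1a to 9.42 for Hrc. In the fractions without dox 3 of 17 were higher in the myotube-enriched libraries, from 1.53 for Srl to 1.95 for Hrc, beside 0.578%. Without the library labelled replicate 2 edgeR called 0 of 17, 10 had an unadjusted p under 0.05, and 0.308% of all genes tested were higher. The median dox effect of the list at 48 h was -0.17, beside -1.13 for the 10 members and 0.01 for all genes tested.

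Relatives of the core genes were mostly low, and of 12 listed only 4 to 6 had enough counts to be tested with dox. Cacnb3, a beta subunit of other calcium channels, rose with dox by 1.37 on the log2 scale at 24 h, by 1.02 at 48 h, by 0.97 in iCdh23 and by 0.90 in iMcam (edgeR adjusted p between 6.77e-09 and 0.00225), while Cacnb1 fell in the last 3 of these. Stac, a relative of Stac3, fell by 4.65 at 48 h (adjusted p = 8.9e-05), and Stac2 fell by 1.88 at 120 h (adjusted p = 1.22e-05). Ryr3 rose by 0.60 at 120 h (adjusted p = 0.00107). Cacng6, a gamma subunit, rose by 9.77 from 24 to 48 h without dox and fell by 4.96 with dox in iCdh23 (adjusted p = 0.000623).

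The pattern of the 10 genes over the 16 group means was described by correlation, with no test, since groups share lines, times and batches. Between pairs of members, Pearson's r of the log2(CPM + 0.5) group means ran from 0.816 for Jph2 and Trdn to 0.997 for Cacna1s and Casq2, with a median of 0.931. Among 12075 other genes with at least 5 CPM in a group, the ones closest to the members' mean pattern were Prkag3 (r = 0.995), Hrc (0.994), Lmod3 (0.993), Cav3 (0.992) and Trim72 (0.992). Over the 12 groups at 48 and 120 h alone they were Eno3, Chrnd and Prkag3 (0.993 each) and Lmod3 and Trim72 (0.992 each), 3 of which were in the first 5. Over all 16 groups 183 genes had r over 0.95, and 128 over the 12. Without the 2 libraries labelled replicate 2, r between members ran from 0.80 to 0.997 over the 16 groups, and 4 of the first 5 genes were the same, with Camk2a (0.991) in place of Cav3. Over the 12 groups 4 were again the same, with Myl1 (0.988) in place of Prkag3.

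Some counts may be shared with overlapping genes on the other strand, since the strand setting of the counting is not given in the sources used here. Gm37759, annotated antisense to Cacna1s, shares 19.98% of the exonic bases of Cacna1s. It was at 37.0 CPM in the myotube-enriched library labelled dox replicate 1, where Cacna1s was at 117 CPM, and at or under 0.25 CPM in unseparated 120 h cultures. It was at 5.16, 6.14 and 8.18 CPM in the myotube-enriched libraries labelled vehicle. Reads of the pair cannot be told apart without strand, and adding its counts to Cacna1s changed no call of Cacna1s. Adding them cannot show how many counts given to Cacna1s belong to Gm37759. For dox in the myotube-enriched fraction, where Gm37759 was highest, no gene passed by edgeR to begin with.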

How the data were processed

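PolyA RNA-seq libraries (paired-end) were quantified by the authors with Salmon in nf-core/rnaseq, and the authors deposited estimated counts per transcript in 3 tables of 12, 23 and 12 libraries, with no column left unused. The submitters' processing notes name mm10. The annotation release and the strand setting are not given in the sources used here. Transcript counts were summed to 45650 gene symbols (98.77% of gene IDs had a symbol in GENCODE vM21) and rounded. Lengths were found for 98.72% of transcripts, which held 99.66% of counts. Deposited totals per library set the precision, which covers counting error only. Replicates differed beyond sampling noise in all 46 pairs.

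Each of 18 comparisons of 2 groups and 4 interactions was fitted with edgeR 4.0.16 (TMM, filterByExpr, quasi-likelihood F test) in R 4.3.3 on the samples it compares, with Benjamini-Hochberg adjustment over all genes tested and a threshold of 0.05. Every adjusted p in the text is from edgeR unless DESeq2 1.42.0 is named. Approximate 95% intervals were taken from the standard error. Ratios resting on 4 counts carry exact 95% counting intervals (binomial, Clopper-Pearson). The labels call the replicates biological and do not say whether cultures were independent, so p-values measure the spread between these samples. An exact test of 3 against 3 cannot go below p = 0.1. The fits were tested on simulated data. Alternatives were DESeq2, RLE or upper-quartile scaling, no low-count filter, a replicate block, all 16 groups in 1 fit and each library left out. Protein-coding transcripts only, an antisense partner added and both myotube-enriched libraries of replicate 2 left out (also with the block) were chosen after seeing the data.

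Replicate numbers from the labels were taken to pair the samples where the deviations of all 3 same-numbered pairs correlated above 0.1. This was so for dox in iMcam (0.362, 0.227 and 0.419) and for the vehicle libraries of the fractions (0.412, 0.117 and 0.189), and the pairing rests on these correlations. In the fractions the myotube-enriched replicate 3 correlated best with the myoblast-enriched replicate 2, so that pairing is uncertain.

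The 10 genes and the lists were chosen with earlier results of these data known. The members tested are named in every comparison. Of 17 accessory genes and 12 relatives, the highest and the lowest log2 fold change among the genes past the threshold may be named in a comparison, and of all other genes the 5 closest in pattern. Marker and induced genes are given as checks. Promoter windows were RefSeq sequences of GRCm38.p6.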

Additional observations from a re-analysis of the deposited data

Results flagged for a closer look

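For 15 of 37 differences tested over 4 interactions, the dox effect on a triad gene differed between times or lines by edgeR's interaction test at the threshold used for all genes. Between 24 and 0 h these were Ryr1 (-1.56 on the log2 scale) and Jph1 (-0.84), both lower at 24 h, where 20.7% of all genes tested were. Over all 14449 genes tested 1926 were higher and 2995 lower there, a share that 2 of 7 triad genes does not exceed. Between 120 and 48 h they were Trdn (1.48), Casq1 (1.17), Casq2 (1.13), Stac3 (0.78) and Jph1 (0.67), with higher effects at 120 h, beside 16.8% of all genes tested, and Cacng1 (-0.90) and Jph2 (-0.54), with lower ones, beside 17.2%. None of these 9 differences between times passed in the fit over all 16 groups. Between iCdh23 and iMcam they were Casq2 (-3.95), Trdn (-3.92), Cacna1s (-3.74), Cacng1 (-2.75), Stac3 (-2.22) and Jph2 (-1.57), all lower in iCdh23, where 7.61% of all genes tested were. Between the fractions no difference passed.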

How the results depend on the processing

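No call reversed under any alternative. Of 2923 values of single genes over all alternatives, 64, from 28 of 205 results, changed sign with no call in either fit. Of these, 51 came from leaving out a library and 8 from leaving out both myotube-enriched libraries of replicate 2, and 15 of the 28 results involve that fraction, with Jph1 between the fractions with dox moving from 1.02 to -0.17. Of 205 values of single genes, DESeq2 kept the call of 197, RLE scaling 202, upper-quartile scaling 202, no low-count filter 195, the replicate block 185 and the fit over all 16 groups 164. Leaving out a library kept 1353 of 1421. Protein-coding transcripts kept 204, the exception being Cacna1s between the fractions without dox (1.82, adjusted p = 0.0397), leaving out both myotube-enriched libraries of replicate 2 kept 40 of 40, and the antisense partner 17 of 17. The cause of each change below was not tested.

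In the fit over all 16 groups, which shares 1 estimate of spread, members passing, each with the share of all genes tested, were 2 higher (3.17%) for dox at 0 h, 0 higher (18%) and 4 lower (19.5%) for dox at 120 h, 0 lower (2.14%) for dox in the myoblast-enriched fraction, 0 higher (22.8%) from 0 to 24 h without dox, 0 higher (14.8%) and 2 lower (19.3%) with dox, 4 higher (24.6%) from 48 to 120 h without dox, 1 lower (33.9%) with dox, 7 higher (5.35%) between the fractions without dox and 4 (0.848%) with dox, 0 lower (2.77%) for 24 against 0 h, and 0 higher (8.28%) and 0 lower (10.5%) for 120 against 48 h. DESeq2 called 2 lower (6.39%) for dox in the myoblast-enriched fraction, 7 higher (3.92%) between the fractions without dox and 1 higher (16.2%) for 24 against 0 h. Without a low-count filter these were 3 lower (5.29%) and 7 higher (1.68%) for the fraction comparisons. RLE and upper-quartile scaling each gave 2 higher (15.8% and 21.2%) for 24 against 0 h. Of the 5 genes closest in pattern, 3 were shared between 16 and 12 groups.

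With the replicate block, 7 members were lower for dox in the myoblast-enriched fraction, beside 14.5% of all genes tested, with only 2 pairs (correlations of 0.432 and 0.301). There were 7 higher (3.17%) between the fractions without dox, or 10 (9.89%) when the myotube-enriched library of replicate 2 was left out too, 4 higher (2.12%) in iCdh23 against iMcam without dox, and 1 higher (13.8%) for 24 against 0 h. Except for the pairings named in the methods, the samples share only a number. For dox in iMcam the block changed the call of Trdn and no other.

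With each library left out, members passing, each with the range of the share of all genes tested in the same fits, were 4 to 5 higher (27.1 to 31.8%) for dox at 24 h, 9 to 10 lower (24.4 to 30.8%) at 48 h, 1 to 2 higher (15.1 to 22.5%) and 7 to 8 lower (17.7 to 26.5%) at 120 h, 0 to 4 lower (0 to 3.65%) in the myoblast-enriched fraction and 8 to 10 lower (17.5 to 23.9%) in iMcam. They were 1 to 2 higher (34.2 to 37.4%) from 0 to 24 h without dox, 1 to 2 higher (30.8 to 34.1%) and 4 to 5 lower (31 to 33.4%) with dox, 6 to 9 higher (28.3 to 34.3%) and 0 to 1 lower (29 to 36.9%) from 48 to 120 h without dox, and 7 to 8 higher (30.3 to 33.5%) with dox. They were 0 to 7 higher (0 to 1.53%) between the fractions without dox, 0 to 1 higher (0.0286 to 0.116%) in iCdh23 against iMcam without dox and 5 to 9 lower (14.8 to 19.7%) with dox. For differences of dox effects they were 0 to 1 higher (11.2 to 13.1%) and 1 to 2 lower (17.4 to 20.4%) for 24 against 0 h, 5 to 6 higher (12.9 to 19.2%) and 2 to 3 lower (13.2 to 21.3%) for 120 against 48 h, and 4 to 7 lower (4.6 to 8.29%) for iCdh23 against iMcam. Cacna1s, Casq1 and Casq2 had too few counts at 0 and 24 h to be tested.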

Other observations

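The libraries of the vehicle-treated iCdh23 and iMcam cultures were ordered alike for the triad genes, with replicate 1 lowest and replicate 3 highest for all 10 in both lines. The 10 genes summed to 888.8, 1088 and 1816 CPM in iCdh23 and to 689.8, 940.1 and 1314 CPM in iMcam. In the myotube-enriched fraction the library labelled dox replicate 2 was the highest of its group for 9 of the 10 genes, with a sum of 4039 CPM against 1839 and 887.5 CPM in the other dox libraries.

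The induced adhesion genes of the other lines also moved in iMyoD1 cultures. Mcam was higher with dox at 0 h (log2 fold change 1.29, edgeR adjusted p = 2.64e-06), at 24 h (2.72, adjusted p = 4.26e-09), at 48 h (0.91, adjusted p = 8.46e-06) and at 120 h (4.14, adjusted p = 3.29e-06). Cdh23 was higher at 0 h (1.32, adjusted p = 0.00315), 24 h (3.64, adjusted p = 5.03e-07) and 48 h (1.05, adjusted p = 8.41e-06), and at 120 h it differed by 0.78 (adjusted p = 0.0562). In each line dox also raised the gene that was not its transgene, Mcam in iCdh23 by 2.97 (adjusted p = 1.26e-05) and Cdh23 in iMcam by 2.76 (adjusted p = 0.00015).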
